A study of Homo sapiens with 5 samples.

Results

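G-rich promoter peaks are the subject here: peaks of a DRIP-seq experiment that the deposited annotation places in a promoter of a protein-coding gene and whose DNA holds more G than C on the coding strand. They were chosen by 3 deposited columns, a location class that includes the promoter, the gene type protein-coding, and a GC skew that is at least 0.1 once it is turned to the strand of the assigned gene. GC skew is the difference between G and C bases divided by their sum, so a value of 1 means that no C is present. The 4 peak lists held 1048 such peaks of 80323 in all and of 2834 coding promoter peaks, and they were assigned to 787 of the 2003 genes with a coding promoter peak. Coding promoter peaks with a skew of -0.1 or less are called C-rich below and those between the limits unskewed. No enrichment value entered the choice beyond the authors' peak calling, which left no peak with a −log10 p under 3.00.

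The cells were PC-9, a human lung adenocarcinoma cell line with an activating EGFR mutation. DRIP-seq pulls down sonicated genomic DNA with S9.6, an antibody against RNA:DNA hybrids. Of the DRIP libraries, 2 were labelled exp and 2 control, and both groups are PC-9 cells taken through the same S9.6 precipitation. The exp libraries are read as the FANCI knockdown named in the design text, FANCI being a Fanconi anaemia protein of DNA crosslink repair. The labels do not give the knockdown agent, what the control cells received, or whether the 2 libraries of a group came from separate cultures, so every p-value below measures only the spread between these libraries. A library labelled as input was available as read counts over each list's peaks. No RNA was measured, so neither FANCI nor markers of the cell type could be checked.

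An R-loop forms when a transcript pairs again with its template strand and leaves the coding strand unpaired. Hybrids of G-rich RNA with C-rich DNA are especially stable, and many CpG island promoters carry more G than C on the coding strand just downstream of the transcription start, where R-loops are known to form. Runs of G on the unpaired coding strand can also fold into G-quadruplexes. DRIP on sonicated DNA does not tell the strands apart, so the coding strand used here is that of the gene to which the authors assigned each peak and not a measured direction.

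RefSeq promoter windows (GRCh38.p14) give the DNA at a few of these peaks. Most G-rich promoter peaks did not cover the gene start, so the windows do not stand for the whole set. RefSeq held a window for 599 of the 770 genes with a G-rich promoter peak that matched by name. Not every gene with a start-spanning peak therefore appears here. Of the windows that G-rich promoter peaks of at least 2 libraries overlapped, those of 9 genes are described. The 6 with the most overlap are printed. The windows run from 250 bases before to 50 after an annotated start and are printed 5' to 3' on the coding strand, with runs of 3 or more G in capitals. The SBK3 window (chr19:55545494-55545793, minus strand) lay whole inside the peaks of exp 2, control 1 and control 2. The FIZ1 window (chr19:55599468-55599767, minus strand) was covered over at least 297 bases in exp 1, control 1 and control 2, and the EPS8L1 window (chr19:55075619-55075918, plus strand) wholly in both controls. The SPRY3 window (chrX:155767546-155767845, plus strand), from a later start of that gene in a pseudoautosomal stretch, lay whole inside the peaks of exp 1 and control 1. For ZNF841 (chr19:52094222-52094521, minus strand) and TGFB3 (chr14:75981946-75982245, minus strand) the window is that of an inner start. The ZNF841 window overlapped the peaks of exp 2, control 1 and control 2, over 73 bases at least and over its whole length in 1 library. The TGFB3 window was covered in part, over 186 and 205 bases, in the controls.
SBK3: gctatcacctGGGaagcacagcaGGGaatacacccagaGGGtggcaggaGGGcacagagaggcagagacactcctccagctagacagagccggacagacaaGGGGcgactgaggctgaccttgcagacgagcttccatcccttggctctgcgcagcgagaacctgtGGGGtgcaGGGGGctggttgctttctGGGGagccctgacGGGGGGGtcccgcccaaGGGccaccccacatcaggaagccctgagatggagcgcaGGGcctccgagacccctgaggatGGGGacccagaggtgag
FIZ1: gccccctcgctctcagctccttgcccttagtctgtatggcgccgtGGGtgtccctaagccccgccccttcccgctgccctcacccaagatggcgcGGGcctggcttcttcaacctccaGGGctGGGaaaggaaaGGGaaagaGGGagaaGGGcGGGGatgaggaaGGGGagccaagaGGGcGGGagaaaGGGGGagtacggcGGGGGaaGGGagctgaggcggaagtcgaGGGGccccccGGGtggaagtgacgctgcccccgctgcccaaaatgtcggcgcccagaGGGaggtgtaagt
EPS8L1: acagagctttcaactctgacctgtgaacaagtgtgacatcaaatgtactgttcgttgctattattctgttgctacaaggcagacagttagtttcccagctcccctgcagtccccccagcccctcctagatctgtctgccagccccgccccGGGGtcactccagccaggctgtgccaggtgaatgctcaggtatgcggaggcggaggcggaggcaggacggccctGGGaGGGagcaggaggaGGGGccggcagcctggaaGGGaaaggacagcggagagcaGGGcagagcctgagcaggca
SPRY3: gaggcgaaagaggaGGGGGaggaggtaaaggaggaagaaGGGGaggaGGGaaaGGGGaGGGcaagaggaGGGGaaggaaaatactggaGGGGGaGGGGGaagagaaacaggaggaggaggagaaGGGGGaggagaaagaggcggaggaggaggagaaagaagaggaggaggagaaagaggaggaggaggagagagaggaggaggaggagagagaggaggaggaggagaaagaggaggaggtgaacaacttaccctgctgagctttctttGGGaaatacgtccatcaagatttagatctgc
ZNF841: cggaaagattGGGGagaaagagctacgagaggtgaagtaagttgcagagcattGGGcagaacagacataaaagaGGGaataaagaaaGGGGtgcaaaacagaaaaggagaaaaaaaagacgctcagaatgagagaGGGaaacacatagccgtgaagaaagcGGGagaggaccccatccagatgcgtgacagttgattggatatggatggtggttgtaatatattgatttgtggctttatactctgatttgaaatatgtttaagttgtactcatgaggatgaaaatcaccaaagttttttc
TGFB3: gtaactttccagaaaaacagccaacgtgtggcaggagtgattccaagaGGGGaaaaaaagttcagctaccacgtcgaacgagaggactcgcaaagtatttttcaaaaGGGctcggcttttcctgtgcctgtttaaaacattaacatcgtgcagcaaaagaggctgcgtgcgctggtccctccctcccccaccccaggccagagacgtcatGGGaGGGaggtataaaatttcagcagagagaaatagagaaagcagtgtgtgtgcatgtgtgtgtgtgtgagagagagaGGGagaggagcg
SBK3, which encodes a predicted protein kinase, had 12 runs of 3 or more G against 9 of C, and FIZ1, a zinc finger protein, had 17 against 12. EPS8L1 had 6 G runs against 7 C runs and TGFB3 5 against 4. SPRY3, a Sprouty family inhibitor of receptor kinase signalling, had 10 G runs against 1 C run and a window skew of 0.77, the highest of these 6. ZNF841 had 6 G runs against 1 C run at a GC content of 41.0%, while FIZ1 had 67.0%. A quadruplex motif, searched as 4 runs of GGG or more with 1 to 7 bases of any kind between them, occurred on the coding strand of the FIZ1 and SPRY3 windows and not of the other 4. The windows of IL1R2, MUC4 and NME8, overlapped over at most 113 bases, are not printed. IL1R2 had 5 G runs against 9 C runs and MUC4 10 against 14, with window skews of -0.00592 and 0, so these windows as a whole were not G-rich, while NME8 had 8 against 0 and the motif. A window can differ in skew from the peak that overlaps it.

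The exp lists held 16785 and 14354 peaks of all kinds, against 25281 and 23903 in the control lists. The DRIP reads over all peaks of a list numbered 801196 and 646455 in exp, against 1266127 and 1001453 in control. Peak numbers depend on library depth, which was not used here, so the main peak numbers are given with their share of the list. A G-rich promoter peak held few reads. Its median DRIP count was 32 and 29 in exp, against 34 and 32 in control, and its median input count was 6 and 8 in exp, against 6 and 7 in control.

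Fewer G-rich promoter peaks were called in the exp libraries than in the controls, and they also took a smaller share of the list. They numbered 127 and 126 in exp, against 498 and 297 in control, which is a mean of 126.5 ± 0.707 in exp and 397.5 ± 142 in control (SD, n = 2 each) and a ratio of 0.318. The exp libraries were nearly equal, control 1 was far above control 2, and the groups did not overlap. An exact permutation test (two-sided) gave p = 0.333, the smallest value that 2 against 2 libraries allow, so no comparison of single library values in this design can reach 0.05. All peaks together had a ratio of 0.633. As a share of all peaks the G-rich promoter peaks made up 0.757% in exp 1 (95% Wilson interval 0.636 to 0.899) and 0.878% in exp 2 (0.738 to 1.04), against 1.97% in control 1 (1.81 to 2.15) and 1.24% in control 2 (1.11 to 1.39). The intervals, which cover counting error only, did not overlap between the groups, and neither did they overlap between the controls. The difference in share was -0.789 percentage points (exact p = 0.333), and with the best 14354 peaks of each list by q the numbers were 112 and 126 in exp, against 345 and 203 in control.

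The smaller number was not limited to peaks with G on the coding strand. Unskewed coding promoter peaks numbered 137 and 100 in exp, against 279 and 342 in control, and C-rich ones 145 and 112 in exp, against 423 and 248 in control. As shares of all peaks these are 0.816% and 0.697% in exp, against 1.10% and 1.43% in control, for unskewed peaks, and 0.864% and 0.780% in exp, against 1.67% and 1.04% in control, for C-rich peaks. G-rich peaks made up 31.1% and 37.3% of coding promoter peaks in exp, against 41.5% and 33.5% in control, with overlapping groups (exact p = 0.667). The log2 ratio of G-rich to C-rich peaks was -0.19 and 0.17 in exp, against 0.24 and 0.26 in control. Both exp libraries lay below both controls, by 0.26 on average (exact p = 0.333), but the exp libraries differed from each other by more than that. When each list was cut to its best 338 coding promoter peaks, G-rich peaks numbered 107 and 126 in exp, against 153 and 126 in control, and the ratio was 0.835.

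**Figure D1:**
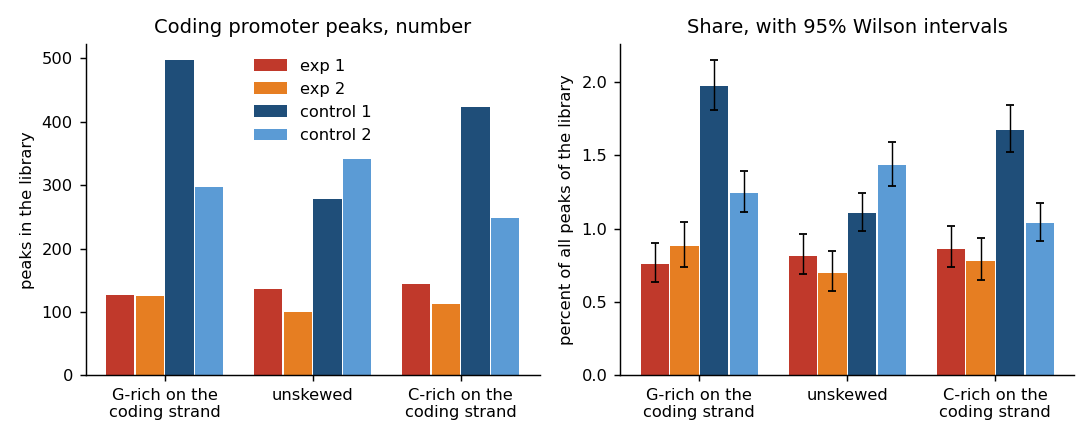
Number of coding promoter peaks per library (left, bars) and their share of all peaks of the library in percent (right, with 95% Wilson intervals), by GC skew class, for exp 1, exp 2, control 1 and control 2. The G-rich bars stand at 127 and 126 in exp and at 498 and 297 in control, and in all 3 classes both exp bars are below both control bars.

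Width and reads of the called peaks overlapped between the groups, while a few measures of strength did not. The median width was 453 and 468 bp in exp, against 437.5 and 510 bp in control (exact p = 1). The median fold enrichment, the authors' ratio of summit reads to a local background, was 3.78 and 3.94 in the exp lists, against 4.12 and 3.87 in the control lists. The share of G-rich promoter peaks with a q of at most 0.01 (−log10 q of 2 or more) was 63.8% and 65.1% in exp, against 77.1% and 67.0% in control, with both exp values below both control values (exact p = 0.333). DRIP and input counts are raw and every list used the same input library, so DRIP reads per input read move with the depth of the DRIP library. Summed over all G-rich promoter peaks there were 2.11 and 3.64 DRIP reads per input read in exp, against 3.49 and 2.42 in control, and in 3 of the libraries 1 mitochondrial peak held a large part of the reads. That peak, assigned to MT-ND6, a subunit of respiratory complex I, held 3827 DRIP and 3029 input reads in exp 1, against 3276 and 2752 in control 1 and 4071 and 3437 in control 2, and in exp 2 no such peak was assigned to MT-ND6. Without mitochondrial peaks the ratio was 4.58 and 3.64 in exp, against 4.94 and 3.81 in control, with overlapping groups (exact p = 0.667). Divided by the same ratio over all other non-mitochondrial peaks of the list, it was 2.43 and 2.61 in exp, against 2.34 and 1.93 in control. For these summed reads both exp values were the higher ones (exact p = 0.333). The median ratio per G-rich promoter peak was 4.38 and 3.62 in exp, against 5.12 and 4.09 in control. For all other peaks that median was 3.91 and 2.94 in exp, against 4.19 and 3.61 in control. Relative to the medians of the other peaks, the groups overlapped.

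Within a list, peaks with a stronger skew had somewhat higher fold enrichments. The median skew was 0.279 and 0.320 in exp, against 0.294 and 0.226 in control. Peaks with a skew of at least 0.5 had a median fold enrichment of 4.55 and 4.24 in exp, against 4.69 and 4.05 in control, while those with a skew under 0.2 had 3.72 and 3.90 in exp, against 4.03 and 3.84 in control. Across peaks of 1 library, which share its depth, Spearman's rho of skew and fold enrichment was 0.275 and 0.156 in exp, against 0.168 and 0.0825 in control.

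Most G-rich promoter peaks did not lie on the annotated gene start. Positions were taken from the outermost RefSeq start of each gene, which was found for 96.6% of coding promoter peaks. The start lay inside 6 of 122 G-rich peaks in exp 1 (4.92%, Wilson interval 2.27 to 10.3) and 7 of 121 in exp 2 (5.79%, 2.83 to 11.5), against 56 of 491 in control 1 (11.4%, 8.89 to 14.5) and 29 of 289 in control 2 (10.0%, 7.08 to 14). Both exp shares were below both control shares, while the intervals overlapped (difference -5.37 percentage points, exact p = 0.333). The number of start-spanning G-rich peaks had a ratio of 0.153 between exp and control, and that of G-rich peaks beside the start 0.331. Among peaks whose -log10 q was 5 or more, which left 3 and 2 start-spanning peaks in exp, against 8 and 5 in control, the difference turned to 1.69 percentage points. The start-spanning share was also lower in both exp libraries for C-rich peaks, at 4.26% and 2.78% in exp, against 9.98% and 6.61% in control, and for unskewed peaks, at 9.77% and 6.32% in exp, against 21.0% and 11.6% in control.

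The share of summits in the first 500 bp downstream of the start was highest in control 1, in all 3 skew classes. Among G-rich peaks with a summit within 3000 bp of the start, 4 of 95 and 5 of 100 in exp had it in that interval, against 77 of 393 in control 1 and 20 of 233 in control 2. These are 4.21% and 5% in exp, against 19.6% and 8.58% in control, so control 2 was closer to the exp libraries than to control 1. Unskewed peaks had 6.36% and 6.94% in exp, against 16.3% and 8.30% in control, and C-rich ones 5.31% and 2.38% in exp, against 8.74% and 4.35% in control. In the next 500 bp the numbers were 10 and 17 in exp, against 69 and 43 in control. Summits 500 to 3000 bp upstream numbered 54 and 51 in exp, against 128 and 105 in control, a ratio of 0.451, and those 500 to 3000 bp downstream 23 and 39 in exp, against 138 and 80 in control, a ratio of 0.284. The downstream share of all G-rich summits within 3000 bp was 28.4% and 44% in exp, against 54.7% and 42.9% in control, with overlapping groups (exact p = 0.667). A further 27 and 21 in exp, against 98 and 56 in control, lay more than 3000 bp from the outermost start, and the start to which the promoter class refers there was not stated.

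**Figure D2:**
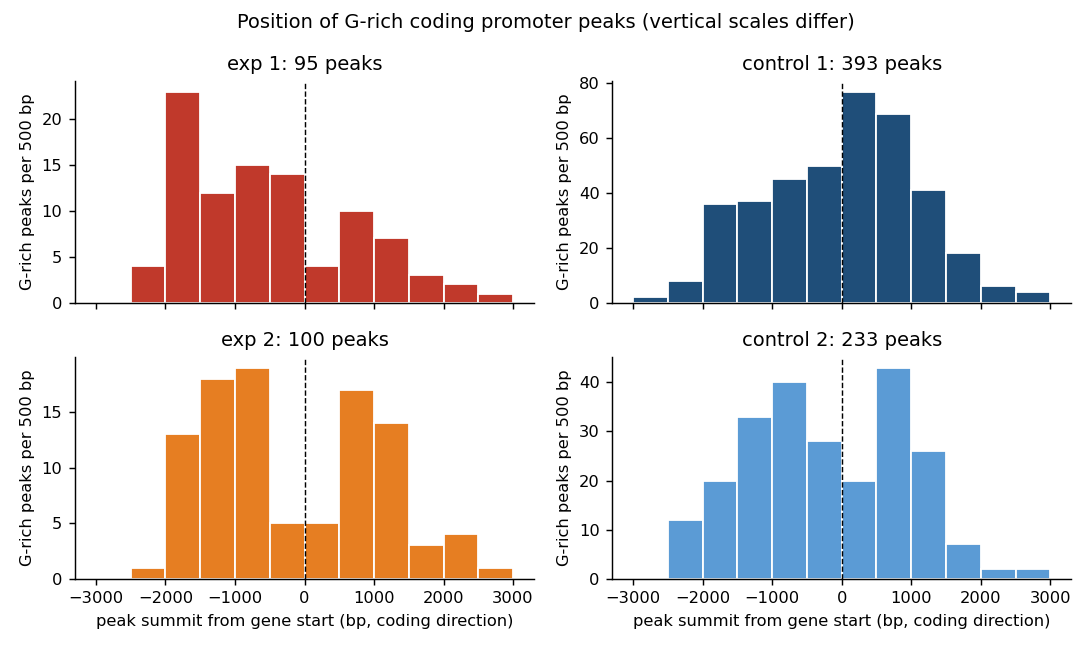
Number of G-rich promoter peaks per 500 bp (vertical axis, scaled to each panel) by distance of the peak summit from the RefSeq gene start in bp (negative is upstream), with the exp libraries left and the control libraries right. The first 500 bp downstream hold 4 and 5 peaks in exp, against 77 in control 1, its highest bar, and 20 in control 2.

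G-rich peaks over the gene start were found at 81 genes, of which 10 had one in at least 2 libraries. WFDC5, a WAP-domain protein of the protease inhibitor kind, had start-spanning peaks of 7.31-fold and 7.06-fold enrichment in exp, against 6.52-fold in control 2 and none in control 1. EPS8L1, IL1R2, PSMB6 and SLC15A3 had theirs in both controls. Of these, PSMB6, a catalytic proteasome subunit, and SLC15A3, a transporter of peptides and histidine, had no coding promoter peak in exp, whereas EPS8L1 had a G-rich peak beside the start in exp 2 (27 DRIP reads) and IL1R2, the decoy receptor for interleukin 1, one in exp 1 (36 DRIP reads). The median skew of start-spanning G-rich peaks was 0.439 and 0.461 in exp, against 0.220 and 0.219 in control, the exp medians resting on 6 and 7 peaks.

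A G-rich promoter peak in all 4 libraries was present at 17 of 787 genes (2.16%). This was near the share for C-rich peaks, 18 of 709 (2.54%), and for coding promoter peaks of any skew, 47 of 2003 (2.35%). At 15 of the 17 genes the 4 G-rich peaks lay in 1 region. CCDC187 (chr9:136307220-136308958 in GRCh38, upstream of the start of the gene on the minus strand) had the strongest of these by q. Its peak held 102 and 104 DRIP reads over 21 and 20 input reads in exp, against 183 and 109 over 20 and 20 in control, with fold enrichments of 5.79 and 8.65 in exp, against 9.76 and 8.17 in control. The skew was between 0.782 and 0.787 in every library. LRCH4 (chr7:100580285-100580963) had fold enrichments of 4.96 and 6.37 in exp, against 7.61 and 6.88 in control. MAFF, a small Maf transcription factor of the stress response (chr22:38200480-38201553), had 4.83 and 4.76 in exp, against 5.16 and 7.76 in control. SHOX, a homeobox regulator of limb growth, had 6.62 and 4.55 in exp, against 4.92 and 4.73 in control. It lies in the pseudoautosomal region, where reads of X and Y cannot be told apart. SNX32, a sorting nexin, had 4.72 and 4.51 in exp, against 6.96 and 5.32 in control. SBK3 had 3.33 and 3.75 in exp, against 5.33 and 3.39 in control. Each fold enrichment belongs to its own list, so these values are descriptions and were not compared between libraries.

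**Figure D3:**
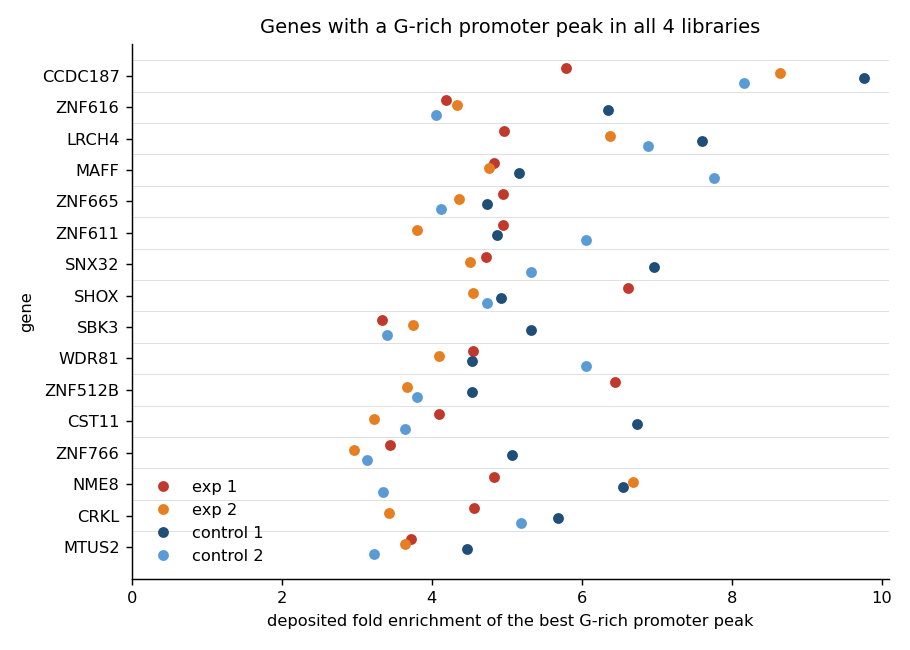
Deposited fold enrichment (horizontal axis) of the best G-rich promoter peak of each library for 16 of the 17 genes with such a peak in exp 1, exp 2, control 1 and control 2. Values range from 2.96 at ZNF766 in exp 2 to 9.76 at CCDC187 in control 1.

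Chromosome 19 held 262 of the 1048 G-rich promoter peaks, or 25%, although 7.23% of RefSeq protein-coding genes lie there. Its share was 24.4% and 28.6% in exp, against 23.3% and 26.6% in control, so the groups overlapped (exact p = 0.667). C-rich coding promoter peaks had 25.5% and 24.1% in exp, against 24.8% and 24.6% in control, and unskewed ones 16.1% and 14% in exp, against 14.7% and 16.4% in control. Coding peaks outside promoters had 8.67% and 9.03% in exp, against 9.90% and 9.71% in control. Both skewed promoter classes were thus higher on chromosome 19 than unskewed promoter peaks in each of the 4 libraries, without a difference between G-rich and C-rich that held in all 4.

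Zinc finger genes took a larger share of G-rich than of C-rich promoter peaks, and 1 stretch of chromosome 19 held most of their G-rich peaks. Genes named ZNF, many of which encode DNA-binding repressors of the tandemly repeated KRAB family, held 8 and 15 G-rich promoter peaks in exp, against 34 and 26 in control. These are 6.30% and 11.9% of G-rich promoter peaks in exp, against 6.83% and 8.75% in control. Among C-rich promoter peaks the share was 4.14% and 5.36% in exp, against 4.02% and 3.63% in control. The G-rich share was above the C-rich share in each of the 4 libraries, and ZNF genes make up 2.58% of RefSeq coding genes. A stretch of chromosome 19 from 52 to 54 Mb, chosen after its values were seen, held 50 of these peaks at 18 ZNF genes (chr19:52094116-53396303). All 50 had their summit downstream of the outermost gene start and none covered that start. The median distance was 946 bp (quartiles 755 and 1084 bp), while ZNF600 and ZNF83 had medians of 45599 and 53642 bp. Inner starts were not counted here, and at ZNF841 an inner start did lie inside a peak. The same stretch held 5 C-rich and 3 unskewed promoter peaks at ZNF genes. Without the stretch, an alternative chosen after seeing the data, ZNF genes held 33 of 987 G-rich promoter peaks (3.34%) and 33 of 918 C-rich ones (3.59%), so the G-rich share was no longer the larger. By library it was then 1.67% and 3.54% in exp, against 3.36% and 3.96% in control, while the C-rich share was 3.5% and 5.45% in exp, against 3.80% and 2.46% in control.

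Of the 18 genes, 11 had a G-rich promoter peak in at least 3 libraries and ZNF616, ZNF611, ZNF665 and ZNF766 in all 4. ZNF616 held 67 and 58 DRIP reads in exp, against 138 and 76 in control, with a summit about 1000 bp (median 999.5) inside the gene. ZNF611 had fold enrichments of 4.95 and 3.81 in exp, against 4.86 and 6.06 in control, and ZNF665 4.95 and 4.36 in exp, against 4.73 and 4.12 in control. ZNF701 and ZNF808 had peaks in exp 2 and both controls and none in exp 1. These genes are related tandem copies, and how reads that match several copies were placed is not given in the sources used here, which makes the split of reads between them uncertain. Outside the stretch, 33 G-rich promoter peaks lay at 25 other ZNF genes, 24 of them downstream of the start, among them ZNF512B on chromosome 20, which had peaks in all 4 libraries (6.44-fold and 3.67-fold in exp, against 4.53-fold and 3.81-fold in control).

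**Figure D4:**
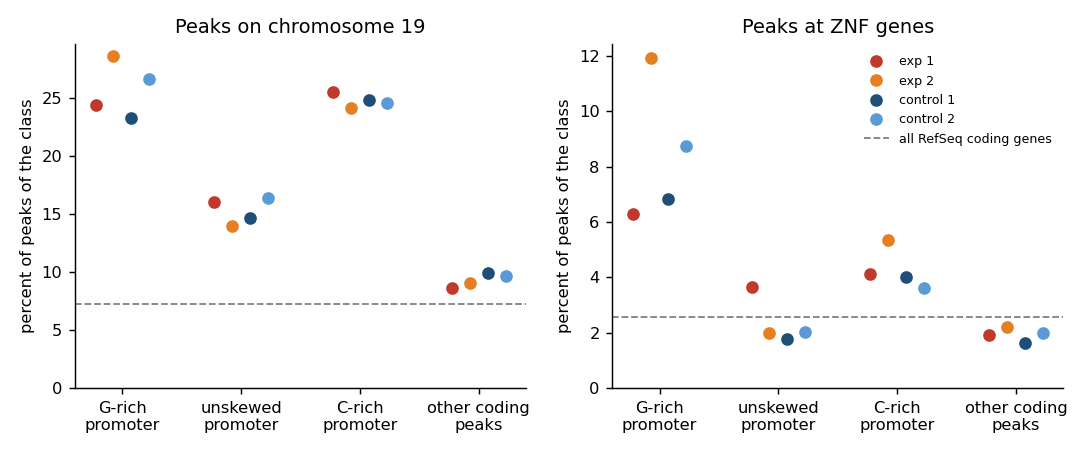
Percent of peaks on chromosome 19 (left) and at genes named ZNF and a number (right) for G-rich, unskewed and C-rich coding promoter peaks and for other coding peaks, 1 point per library (exp 1, exp 2, control 1, control 2), with the share among all RefSeq coding genes as a dashed line. G-rich promoter peaks stand between 23.3% and 28.6% on chromosome 19 and between 6.30% and 11.9% at ZNF genes.

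Most genes and merged regions with a G-rich promoter peak were found in a single library. Of the 787 genes, 624 (79.3%) had such a peak in 1 library. The share was 76.0% of 2003 genes for coding promoter peaks of any skew and 80.3% of 709 genes for C-rich ones. Of the 816 merged regions that held a G-rich promoter peak, 595 (72.9%) were called in 1 library by any kind of peak. That share was 77.6% over all 58639 regions and 71.6% for regions with a C-rich promoter peak, so it was near the background. A peak of exp 1 was overlapped by a peak of exp 2 in 28.3% of cases, by one of control 1 in 40.2% and by one of control 2 in 36.2%. A peak of exp 2 was overlapped in 28.6% by exp 1, in 53.2% by control 1 and in 40.5% by control 2. Over all peaks the shares were 23.5%, 28.8% and 29.0% for exp 1 and 27.6%, 36.4% and 31.6% for exp 2, in the same order. In both sets overlap was lower with the other exp library, whose list is shorter, than with either control.

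Genes with a G-rich promoter peak in both controls and no coding promoter peak in exp numbered 49 of 787 (6.23%), and the reverse pattern held for 4 (0.508%). Among all 2003 genes with a coding promoter peak of any skew, the corresponding numbers were 156 (7.79%) and 13 (0.649%). That count takes a peak of any skew in each library and is thus looser than the count of G-rich peaks. By class, control-only genes numbered 24 of 737 (3.26%) for unskewed and 31 of 709 (4.37%) for C-rich peaks. Exp-only genes numbered 3 (0.407%) and 1 (0.141%) in the same order, and differences between the classes were not tested. With the best 338 coding promoter peaks of each library the G-rich numbers were 12 control-only and 8 exp-only. Without control 1 the control-only count was 215 and without control 2 it was 365, since 1 library then makes the call. At the level of regions, 71 of 816 (8.70%) had a peak in both controls and in no exp library, against 3.83% of all 58639 regions, and 6 (0.735%) in both exp libraries and neither control, against 1.30%. In the control-only direction regions with an unskewed promoter peak had 6.67% and those with a C-rich one 6.95%, where a region with peaks of several classes counts in each, and the differences between the classes were not tested.

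The strongest control-only genes by q had from 26 to 280 DRIP reads per control peak. LYPD8, an intestinal mucosal protein that binds bacteria, came first, with 280 and 175 DRIP reads in control, but both exp libraries had a peak in the same region, with 166 and 182 DRIP reads, that the authors classed as gene body. Its log2 fold change per base, exp over control, was 0.13 ± 0.19 (SE). TNNT1, troponin T of slow skeletal muscle, had 142 and 88 DRIP reads and fold enrichments of 6.88 and 4.40 in control. FOXK1, a forkhead transcription factor, had 82 and 56 DRIP reads and a skew of 0.702 and 0.676. IRX3, an Iroquois homeobox factor (chr16:54286369-54286774 in control 1), had 32 and 30 DRIP reads over 3 and 4 input reads with summits 251 and 196 bp inside the gene, and no peak of any kind in exp. KLK11, a secreted kallikrein protease, HPS6, a subunit of the lysosome-related organelle complex BLOC-2, C12orf76, ZNF525 and RASSF2, a Ras-association protein, likewise had no peak of any kind in exp. ZNF415 had 108 and 66 DRIP reads in control, and exp 2 had a gene-body peak over the same region. In all, 30 of the 49 genes had no exp peak of any kind assigned to them. In the regions of their control peaks 46 had no exp peak of any class, and the control peaks of 45 overlapped each other. A missing peak is a missed threshold and not a measured absence.

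The 4 exp-only genes had from 17 to 45 DRIP reads per exp peak. LUZP4, a leucine zipper protein of mRNA export, had 45 and 37 DRIP reads and a skew of 0.877 and 0.650 in exp 1 and exp 2. HCN3, a pacemaker channel, had 32 and 26 DRIP reads in exp, while control 2 had a peak in the same region that was assigned to the promoter of CLK2, its neighbour. SPDYE16, from a family of near-identical cell cycle genes in which reads can be split between copies, had 41 and 36, and TRIM16, a tripartite motif protein, had 17 and 24 DRIP reads in exp.

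The G-rich promoter peaks with the highest mean skew had far fewer C than G on the coding strand. NME8, a thioredoxin-domain protein of motile cilia (chr7:37847149-37848417), had the highest mean skew among genes with peaks in at least 2 libraries, at 0.942. Its peaks upstream of the start had 61 and 55 DRIP reads in exp, against 87 and 33 in control, and the groups overlapped. CCKAR, the cholecystokinin A receptor, had peaks with a skew of 0.805 and 1.00 in exp, against 1.00 in control 1, and none in control 2. MTUS2, a microtubule-associated protein, had a skew between 0.879 and 0.894 in the 4 libraries, with 51 and 24 DRIP reads in exp, against 76 and 39 in control. Its summit in exp 1 lay 671795 bp from the outermost start. RNF213, a very large ubiquitin ligase known from moyamoya disease, had a peak far inside the gene (chr17:80313102-80316306, summit 52974 bp from the start in exp 2, against 53279 and 53260 bp in control 1 and control 2). It was among the strongest of all G-rich promoter peaks, with a fold enrichment of 7.74 in exp 2, against 13.9 and 9.03 in control, and in exp 1 the region had a peak of 124 DRIP reads without the coding promoter class. OR7G3, an olfactory receptor, had peaks in exp 1 and control 2, and TMEM114 in exp 2 and both controls.

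Read counts could be tested where each library had exactly 1 peak in a region, and there the G-rich promoter regions showed no detectable difference. Such regions numbered 1370, of which 24 held a G-rich promoter peak, and the fit used all of them with the width of each library's own peak as an offset. Library sizes and scaling factors came from these same regions. A shift common to all of them is therefore removed, and their overall median lies near 0 by construction. With edgeR's quasi-likelihood test and Benjamini-Hochberg adjustment 0 of the 1370 regions (0%) passed an adjusted p of 0.05, and 96 (7.01%) had an unadjusted p under 0.05. Of the 24 G-rich promoter regions 0 passed either limit, and DESeq2 called 0 of the 1370, with 21 at an unadjusted p under 0.05. The log2 fold change, exp over control, was positive at 10 and negative at 14 of them, with a median of -0.05, against 0.01 over all 1370 regions. Without the width offset it was positive at 6 and negative at 18, with a median of -0.15, a lowest value of -1.48 and 1 region at an unadjusted p under 0.05, against a median of -0.00073 over all regions. ZNF766 had the lowest value, with 61 and 47 DRIP reads in exp, against 81 and 61 in control, and a log2 fold change of -0.42 ± 0.25 (SE, edgeR adjusted p = 0.793). ZNF512B had the highest, with 76 and 41 DRIP reads in exp, against 96 and 73 in control, over peaks that were narrower in exp, and a log2 fold change of 0.38 ± 0.25 (SE, edgeR adjusted p = 0.816). CCDC187 had -0.23 ± 0.21 (SE). In simulated counts with 50 regions changed at each fold, the edgeR test recovered 40% at a fold of 0.5 and 62% at a fold of 2. The spread between simulated libraries (dispersion) was fixed at 0.05 and not estimated from these data. Recovery in the real libraries is therefore not known, and differences of this size or smaller can go unseen. A region enters this comparison only if all 4 libraries called it, so it says nothing of the peaks called in 1 group alone.

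**Figure D5:**
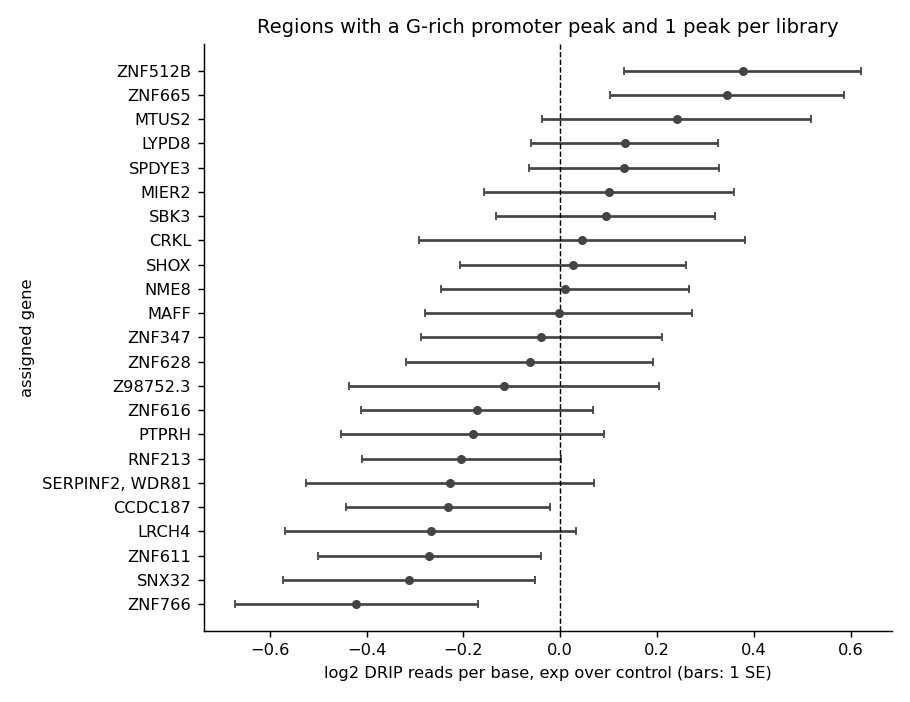
Log2 DRIP reads per base, exp over control, with 1 SE from edgeR (horizontal axis), for 23 of the 24 regions that held a G-rich promoter peak and exactly 1 peak in each library, named by the gene of that peak. The values run from -0.42 at ZNF766 to 0.38 at ZNF512B and lie on both sides of 0.

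Of the 437 genes of 10 lists, 24 (5.49%) had a G-rich promoter peak, beside 770 of 20056 RefSeq coding genes (3.84%). Of 44 immediate early and stress genes, 2 had one: MAFF in all 4 libraries and DDIT4, an inhibitor of mTORC1, in control 1 with 34 DRIP reads. Of 28 promoters used to study R-loops or GC skew, APOE, the lipid transport protein, and ZNF554 had one, each in control 1 only, with 27 and 30 DRIP reads. Of 73 developmental transcription factors, IRX3 had peaks in both controls, IRX1 in control 1 and MEIS1 in control 2. Of 61 ribosomal protein genes, RPS23 and RPS16 had one in exp 2 and RPS26 in control 2. Of 34 Fanconi anaemia and crosslink repair genes only ERCC1, a subunit of the excision repair nuclease with XPF, had one (27 DRIP reads, control 1), and of 46 R-loop regulators only PRMT5, an arginine methyltransferase (17 DRIP reads, exp 2). FANCI itself had none.

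Of 50 lung adenocarcinoma drivers and receptor genes, EGFR, AXL and AKT2 had a G-rich promoter peak. The EGFR peak lay far inside the gene (chr7:55189504-55189969 in control 1, summits 170752 and 170707 bp from the start) in both controls, with 120 and 67 DRIP reads over 54 and 44 input reads and fold enrichments of 2.88 and 2.48. The input counts were far above the median of 6 and 7, and their part in the EGFR peaks was not tested. AXL, a receptor kinase, had 21 DRIP reads in exp 1, against 29 in control 1, and AKT2, a kinase downstream of such receptors, 37 in exp 1. Of 34 lung epithelial genes, the claudins CLDN4 and CLDN7, KRT18 and SCGB1A1 had one in control 1 and CAV1 in control 2, each with 22 to 46 DRIP reads. Of 22 markers of other cell types, MYH11 and CD14 had one, both in control 1. PTCH1 and TEAD3, among 54 CpG island signalling and chromatin genes, had one in control 1. Peaks in 1 library with so few reads do not allow a comparison of the groups.

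The promoters of genes with a G-rich peak differed little from other promoters in base content. RefSeq held a window for 599 of the 770 such genes that matched by name, with a median GC content of 62.7%, against 62.7% for 15843 coding genes, and a median ratio of observed to expected CpG of 0.744, against 0.763. A window skew of at least 0.1 was present in 33.1%, against 26.2% of all coding genes, 25% of genes with a C-rich peak and 27.9% of those with an unskewed one. For the 58 genes with a G-rich peak over the start it was 55.2%, which follows in part from the choice by skew. The quadruplex motif occurred on the coding strand of 21.4% and the template strand of 20.0% of the windows, against 17.3% and 16.3% of all coding genes. A match of the motif is a description of the letters and not a mapped structure.

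The skew limit cut through a continuous range. The peaks just inside it were those of LMAN2L (0.1) in exp 1, ZNF600 (0.101) in exp 2, ADGRG1 (0.101) in control 1 and PPP1R15A (0.1) in control 2, and just outside it were AC092647.5 (0.0997), PGA3 (0.0987), ARHGEF35 (0.0995) and NLRP12 (0.0998) in the same order of libraries. A start of a gene on the opposite strand lay inside 2 and 1 G-rich peaks in exp, against 11 and 4 in control. Most G-rich peaks do not contain the start of their own gene either, so this count cannot show that the coding strand was assigned securely. Of 200 regions with a G-rich peak and coding promoter peaks in at least 2 libraries, 152 (76%) held only G-rich ones. In 10 of the 200 a C-rich one was also present.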

How the data were processed

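DRIP-seq peak lists of 2 exp and 2 control libraries of PC-9 cells were used, 1 list per library, as deposited by the authors. Per the submitters' processing notes FastQC, cutadapt, Bowtie2, MACS2 and DiffBind were used with the build GRCh38 (hg38). Their versions and settings, the annotation release and the limits of the promoter class were not stated in the sources used here. Counts of DRIP and input reads over each peak are whole numbers without normalization, per the file headers. The fold enrichment is the authors' deposited ratio per peak and served only to describe and order peaks inside 1 list. The deposited p-values and q-values were read as −log10, since their smallest −log10 p was 3.00. The authors' GC skew score was read as that of the reference strand: in 95 peaks that contain a whole RefSeq window, it correlated with the window's reference-strand skew at r = 0.917 (r = 0.961 over 49 windows of minus-strand genes). It was turned by the sign of the assigned gene's strand.

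Groups came from the sample titles. The members and gene lists were chosen with earlier results of these data known. Named genes were those with a G-rich promoter peak in all 4 libraries, in both libraries of 1 group only, with the highest mean skew, on a list, or next to the skew limit, the first kinds limited to the 10 best by q and the skew kind to 6. WFDC5 and the other start-spanning genes, the genes of the promoter windows, MT-ND6, KRT18 and the zinc finger stretch were named after their values were seen. Single library values were compared with exact permutation tests (two-sided). Regions are merged peaks with an overlap of at least 1 bp. Shared regions were tested with edgeR 4.0.16 (R 4.3.3), with TMM factors from width-scaled counts, and with DESeq2 1.42.0 as an alternative. The script was tested on simulated data. Gene starts, windows and sequences are from RefSeq (GRCh38.p14), matched by symbol or unique synonym. Alternatives changed the q limit, the filter on input, the number of peaks, the skew limit, the strand, the promoter class, the chromosomes and the libraries used. 1 gene selected by these rules is not reported here and is left out of the figures.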

Additional observations from a re-analysis of the deposited data

How the results depend on the processing

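The ratio of G-rich promoter peak numbers (0.318) stayed below 1 in 15 alternatives, between 0.254 and 0.835, the highest being that with 338 coding promoter peaks per library, and no alternative could reach a p under 0.05 with 4 libraries. The share of all peaks stayed lower in exp in 14 alternatives, by 0.425 to 1.15 percentage points, and the log2 ratio to C-rich peaks stayed lower in 15, by 0.01 with the skew as deposited up to 0.44. The share among coding promoter peaks turned to 0.0157 percentage points with −log10 q of at least 5 and to 0.681 without control 1 (range when a library was left out -7.34 to 0.681). DRIP per input read, exp over control, turned from 0.973 to 1.01 with −log10 q of at least 2, 1.28 with at least 5, 1.02 with equal peak numbers, 1.16 with equal coding promoter peak numbers, 1.03 with a skew of at least 0.2 and 1.09 without chromosome 19, and it ran from 0.715 to 1.23 when a library was left out, being above 1 without exp 1 and at 1.19 without control 1. The share of peaks over the gene start stayed lower in exp in 15 of 16 alternatives, which for this result were all chosen after seeing the data, and turned to 1.69 with −log10 q of at least 5; with any RefSeq transcript start it was -9.18. Control-only genes numbered 8 with −log10 q of at least 5, 32 with equal peak numbers, 12 with equal coding promoter peak numbers, 28 with the promoter class alone and 61 to 365 when a library was left out. Exp-only genes numbered 0, 4, 8 and 5 under the same settings, 2 with the skew as deposited and 8 to 58 when a library was left out. Of 24 genes named as found in all 4 libraries or in 1 group, 5 kept that pattern with −log10 q of at least 5, 13 with the promoter class alone and 9 with the skew as deposited. In the shared regions 0 G-rich promoter regions were called in each of 9 alternatives, with medians from -0.19 (the 10 regions that each peak mostly covers) to -0.05; without exp 1 edgeR called 3 other regions. The larger ZNF share of G-rich promoter peaks was lost without the chromosome 19 stretch (3.34%, against 3.59% of C-rich ones). Replicate numbers are shared by the groups without a stated pairing, and the deviations of same-numbered libraries had r = -0.088 over 1370 regions. With the replicate block 0 of 24 were called (lowest adjusted p 0.895).

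Peaks held about 30 reads each, library depth was not used, and the groups hold 2 libraries, so differences in peak number and in sensitivity of calling cannot be told apart.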
